A study of Drosophila melanogaster with 2 samples.

Results

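The genes of the mitochondrial ribosome in Drosophila melanogaster were examined in a map of escargot binding. Members were the protein-coding genes whose Ensembl symbol begins with mRpL or mRpS, which gave 73 of the 13968 protein-coding genes on the 7 chromosome arms. Of these, 47 carry the prefix of the large ribosomal subunit and 26 that of the small subunit. The map comes from chromatin immunoprecipitation with sequencing (ChIP-seq) of whole embryos aged 0 to 24 h from the strain esg-GFP, whose inserted transgene makes a fusion of escargot (esg) to the green fluorescent tag eGFP. Chromatin was sonicated to 200 to 800 bp and precipitated with an antibody to GFP, although the antibody field of the labels reads esg. The series holds 1 group of 2 biological replicates, set by the authors against a control alignment, with no other genotype, stage or treatment. No test over samples exists for such a design, and members are therefore described by counts beside the same counts over all protein-coding genes. Embryos of every stage and tissue were mixed, so a peak cannot be assigned to a cell type.

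The mitochondrial ribosome translates the few respiratory chain proteins that are encoded in mitochondrial DNA. Its proteins are encoded in the nucleus, made in the cytoplasm and imported. One class descends from bacterial ribosomal proteins and another is found in mitochondria and has no bacterial counterpart. Escargot belongs to the Snail family of zinc finger proteins, which bind E-box motifs such as CAGGTG and are known for roles in stem cells, trachea and nervous system of the fly.

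A member was called bound when the summit of a peak on the conservative list of the authors lay within 1000 bp of one of its annotated transcript starts. That list held 4419 peaks that passed an irreproducible discovery rate (IDR, an estimate of how likely a peak is not to be reproducible) of 0.01, and 4397 of them lay on the arms. Each peak carries a signal value that is the authors' own and whose unit is not stated. It is used here only to describe peaks and to rank them within a list, with rank 1 the strongest. Read depth is unknown, and the intervals given with shares are exact Clopper-Pearson intervals at 95% that cover counting error only.

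The DNA at the summits of the strongest member peaks was read from the reference genome. The 101 bp around the summit follow for 7 of the 10 bound members with the strongest peaks, read 5' to 3' on the strand of the member from the RefSeq sequence of the dm6 assembly, with the 11 bases centred on the summit in capitals. Sequence at mRpL41, mRpL23 and mRpL34 is not shown, and their GC content is given with the rest. All 7 summits are intergenic.
mRpS10 (chr3R:15229487-15229587, plus strand): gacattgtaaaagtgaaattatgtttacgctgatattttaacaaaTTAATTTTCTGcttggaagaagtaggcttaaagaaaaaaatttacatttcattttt
mRpS23 (chr2L:13835409-13835509, minus strand): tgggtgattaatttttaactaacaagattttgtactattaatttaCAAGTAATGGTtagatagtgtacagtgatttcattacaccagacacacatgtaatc
mRpS2 (chr2L:4850532-4850632, minus strand): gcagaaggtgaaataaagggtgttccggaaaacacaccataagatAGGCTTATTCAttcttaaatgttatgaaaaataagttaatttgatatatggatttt
mRpS6 (chr3L:4364385-4364485, plus strand): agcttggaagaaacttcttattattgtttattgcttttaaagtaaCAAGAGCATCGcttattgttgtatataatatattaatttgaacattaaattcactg
mRpS24 (chr3R:24163788-24163888, minus strand): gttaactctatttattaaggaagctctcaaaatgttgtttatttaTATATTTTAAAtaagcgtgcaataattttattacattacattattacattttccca
mRpL24 (chr2L:4945440-4945540, minus strand): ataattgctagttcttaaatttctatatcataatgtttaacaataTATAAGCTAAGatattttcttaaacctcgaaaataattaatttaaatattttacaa
mRpL20 (chr3L:13018096-13018196, minus strand): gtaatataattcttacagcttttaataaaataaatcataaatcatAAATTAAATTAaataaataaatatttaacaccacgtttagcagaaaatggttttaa
These windows are rich in A and T. Their GC content was 16.8% at mRpL24 and mRpL20, 21.8% at mRpS24, 23.8% at mRpS10, 24.8% at mRpS6, 28.7% at mRpS23 and 29.7% at mRpS2. At the 3 members whose sequence is not shown it was 22.8% at mRpL41, 20.8% at mRpL23 and 31.7% at mRpL34. Runs made only of A and T reached 30 bp at mRpL20 and 24 bp at mRpL24, and 8 bp at mRpS2. Over the 22 bound members the median GC content at the strongest summit was 27.7%, with a range of 16.8% to 59.4%. Over all 4397 peaks, near starts or not, the median was 29.7%. The median longest run of A and T was 13.5 bp at the members and 11.0 bp over all peaks. The highest value, 59.4%, belonged to mRpL18, whose summit lies inside the neighbouring gene Taz.

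Escargot peaks lay at the starts of 22 of the 73 mitochondrial ribosomal protein genes, a share of 30.1% (19.9 to 42.0). Over all protein-coding genes the share was 19.1%, or 2662 of 13968, just under the lower bound of that interval. All 22 bound members face a neighbour: a protein-coding gene on the other strand whose 5' end lies upstream of the member's within 1000 bp, so that both genes are transcribed away from a shared stretch of DNA. Such divergent pairs are common among these genes. They include 56 of 73 members (76.7%, 65.4 to 85.8), against 4648 of 13968 protein-coding genes (33.3%).

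Read within the divergent genes alone, the difference between members and background was smaller. Peaks lay at 22 of 56 divergent members (39.3%, 26.5 to 53.2) and at 32.0% of all divergent genes, a value inside the interval. Of the 17 members with no divergent neighbour, 0 were bound, a count that allows a share of up to 19.5%, while 12.6% of all genes of that kind were bound. The 17 are mRpL9, mRpL10, mRpL12, mRpL13, mRpL14, mRpL19, mRpL36, mRpL40, mRpL45, mRpL49, mRpL53, mRpS5, mRpS9, mRpS14, mRpS33, mRpS34 and mRpS35. Among them mRpL13 and mRpL53 share their start position with CG10602 and CG33155 on the same strand, and mRpS14 overlaps at its start with Naa15-16, the gene of an N-terminal acetyltransferase subunit. The split depends on both 1000 bp settings. With divergent starts limited to 500 bp, 19 of the 22 bound members were divergent, without mRpL41, mRpL4 and mRpS25. With summits counted to 2000 bp, mRpL12 and mRpL13 of the 17 were bound. A summit between divergent starts is counted for both genes, so these counts do not say which gene of a pair the fusion protein acts on.

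**Figure D1:**
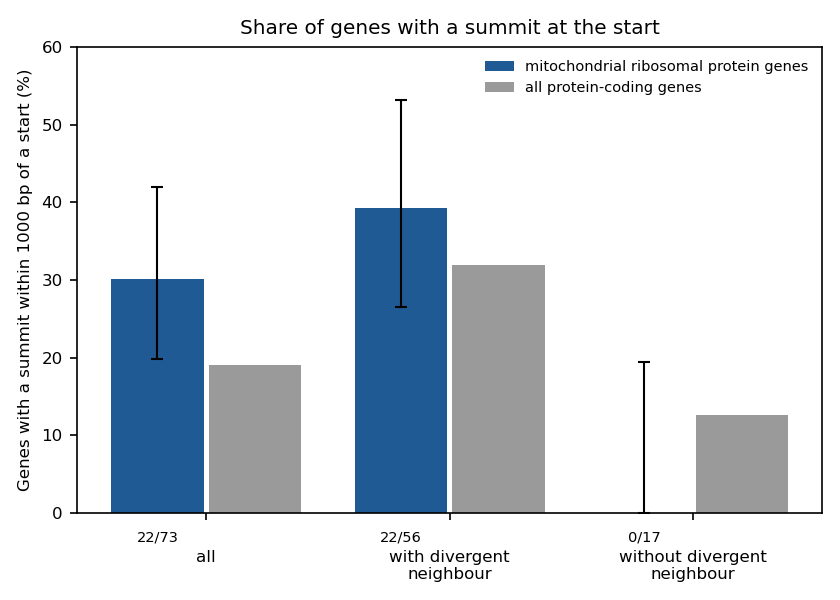
Share of genes (%) with a conservative-list summit within 1000 bp of a start, for mitochondrial ribosomal protein genes (blue) and all protein-coding genes (grey), with bound members of all members under each blue bar and exact 95% intervals as error bars. The member share is 30.1% in all, 39.3% with a divergent neighbour and 0 of 17 without one, beside 19.1%, 32.0% and 12.6% of all genes.

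The bound share was larger in the small subunit, a difference that was not tested. Of its 26 genes, 12 were bound (46.2%, 26.6 to 66.6), and of the 47 large-subunit genes 10 were bound (21.3%, 10.7 to 35.7). The intervals overlap, and divergent neighbours were equally frequent at 76.9% and 76.6%. The bound share also differed with the distance between divergent starts, as given below. That distance was not compared between the subunits. In human mitochondria the counterparts of mRpS30 and mRpS18A belong to the large subunit. Neither was bound, and with them moved the counts were 12 of 24 and 10 of 49. By origin, in the classes of the human protein names, the shares were nearly equal. Bound were 13 of 43 genes classed as having a bacterial homologue (30.2%, 17.2 to 46.1). Of 30 genes classed as mitochondria-specific, 9 were bound (30.0%, 14.7 to 49.4). The latter class holds mRpS18A and mRpS18B, although mRpS18C, which shares their S18 symbol, is classed as having a bacterial homologue. For these genes the class does not show that a bacterial counterpart is lacking.

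The bound genes of the small subunit with bacterial homologues were mRpS2, mRpS6, mRpS7, mRpS10, mRpS21 and mRpS24. In Escherichia coli, S7 starts assembly of the head of the small subunit, S10 is also part of the head, and S6 binds rRNA together with S18. The bound genes of this subunit classed as mitochondria-specific by the human names were mRpS18B, mRpS22, mRpS23, mRpS25, mRpS26 and mRpS31. In the large subunit, mRpL4, mRpL18, mRpL20, mRpL23, mRpL24, mRpL34 and mRpL35 have bacterial homologues. Of these proteins in E. coli, L20 and L24 act early in assembly, L23 lies at the exit of the peptide tunnel, L4 lines the tunnel wall and L18 binds the small rRNA of that subunit. The bound mitochondria-specific genes were mRpL37, mRpL39 and mRpL41.

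By arm, the shares of bound members had wide intervals that overlap. Peaks lay at 6 of 12 members on 2L (interval 21.1% to 78.9%), 3 of 12 on 2R (5.49% to 57.2%), 6 of 17 on 3L (35.3%, 14.2 to 61.7), 6 of 21 on 3R (28.6%, 11.3 to 52.2) and 1 of 11 on X (9.09%, 0.23 to 41.3). Over all protein-coding genes of those arms the shares were between 17.8% and 20.6%. Each interval except that of 2L includes its arm's background, which was 19.0% on 2L. On 2L 10 of the 12 members are divergent, and the 32.0% bound among all divergent genes lies inside the 2L interval.

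The strongest peak at a member stood at rank 3 of 4397. It lay in the 762 bp between mRpL41 (FBgn0034001), a mitochondria-specific large-subunit protein, and CG8079, with the summit 138 bp upstream of the mRpL41 start and 624 bp from that of CG8079. Its signal value was 2128.4 in the conservative list, 1186.1 in replicate 1 (rank 3 of that ranked list) and 943.3 in replicate 2 (rank 5). Each replicate was ranked in its own list, so levels are compared between replicates only in this descriptive sense.

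Of the small-subunit genes, mRpS10 and mRpS23 were in the top 20 peaks. The peak between mRpS10 (FBgn0038307) and Art3, an arginine methyltransferase gene 257 bp away, had a signal value of 1419.2 (rank 13), with 728.6 in replicate 1 and 695.5 in replicate 2. Its summit was 128 bp from the mRpS10 start and 129 bp from the Art3 start, the midpoint of the pair. The peak at mRpS23 had a signal value of 1404.7 (rank 14), with 703.4 and 704.3 in the replicates, and its summit was 387 bp upstream of mRpS23 and 105 bp from CenG1A, which encodes an Arf GTPase-activating protein. The replicates gave near-equal values for both peaks, the first midway between its genes and the second nearer to the neighbour.

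The remaining large-subunit gene of the top 20 was mRpL23. It and CG9004 start 24 bp apart, and the summit lay on the gene side, 68 bp downstream of an mRpL23 start and inside its 5' UTR. Its signal value was 1270.5 (rank 18), with 654.8 in replicate 1 and 623.8 in replicate 2 (rank 19 in both). The 4 members with peaks in the top 20 were among 29 bound genes of 2662 with such a peak, and 4 of the 31 peaks with a signal value above 1000 lay at members.

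Below these, signal values fell to under 500. The peak between mRpS2 and Mon1, an endosomal trafficking gene, had a signal value of 485.9 (rank 204), with 280.0 and 205.6 in replicates 1 and 2. Its summit was 163 bp upstream of mRpS2 and 59 bp from Mon1. The peak between mRpL24 and betaggt-I, whose product is a subunit of a protein prenyltransferase, had a signal value of 459.5 (rank 227), with 246.6 and 210.0 in the replicates. In this pair the summit was 129 bp upstream of mRpL24 and 89 bp from the neighbour. In both pairs, which are 222 bp and 218 bp apart, the neighbour's start was the nearer.

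Lower in the top 10 were mRpL20, mRpS6, mRpL34 and mRpS24. At mRpL20 the signal value was 292.0 (rank 509), with 161.1 and 144.8 in the replicates, and the summit lay 279 bp upstream, 120 bp from Icmt, which encodes an isoprenylcysteine carboxyl methyltransferase. At mRpS6 it was 274.4 (rank 561), with 141.1 and 134.9, and the summit was 115 bp upstream and 333 bp from Cip4, a gene for a membrane-bending adaptor. Here the member was the nearer gene, and CG33514 also had a start within 1000 bp of the summit. At mRpL34 the signal value was 187.8 (rank 1046), with 102.4 and 79.8, and the summit was 208 bp upstream and 176 bp from Dg, which encodes the extracellular matrix receptor dystroglycan. At mRpS24 it was 167.4 (rank 1243), with 79.7 and 82.8, and the summit lay 293 bp upstream, 128 bp from Apc2, a gene of the Wnt signalling destruction complex. All 10 of these peaks passed the threshold in both replicates.

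The other 12 bound members had signal values from 143.9 at mRpS7 (rank 1514) to 67.6 at mRpL18 (rank 3771). In decreasing order they were mRpS7, mRpL37, mRpS25, mRpS26, mRpS22, mRpL4, mRpL39, mRpS21, mRpL35, mRpS31, mRpS18B and mRpL18. Their neighbours include the cell cycle kinase gene Cdk1 at mRpS7 and the proteasome subunit gene Prosbeta2 at mRpL39. A pair of neighbours also act in mitochondria: Mitofilin, at mRpL35, organises the cristae, and Taz, at mRpL18, encodes the cardiolipin-remodelling enzyme tafazzin. Further neighbours were nmdyn-D6 at mRpS25, CG13698 at mRpS26, CG5003 at mRpS22, CG4440 at mRpL4, Droj2 at mRpS21, hzg at mRpS31 and Kua at mRpS18B. Functions of the neighbours of unbound members are not given, so mitochondrial neighbours are not shown to be particular to bound pairs. At mRpL4 and mRpS26 a second, overlapping peak was listed, with signal values of 22.8 and 21.4 and ranks of 4241 and 4245.

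**Figure D2:**
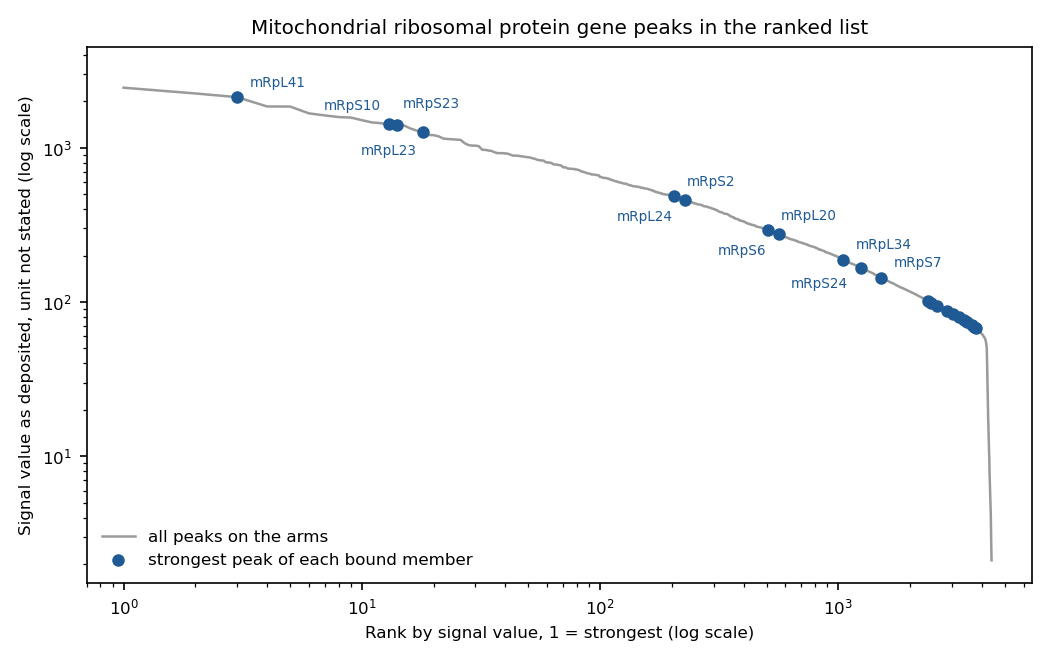
Signal value (log scale, unit not stated) against rank (log scale) for all 4397 peaks on the arms (line) and for the strongest peak of each of the 22 bound members (points; the 11 strongest are named). mRpL41, mRpS10, mRpS23 and mRpL23 lie at ranks 3 to 18, and the weakest 11 lie between ranks 2368 and 3771.

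The members' peaks were spread through the list. Their median rank was 1941, or 44.1% of the way down the list, with a median signal value of 122.8. Over the 16 members bound in the list of replicate 2 alone, the median was 26.4% of the way down that list. Over the 18 members bound in the list of replicate 1 alone it was 38.2%. These are smaller sets of members, and the median over all bound genes was not taken in those lists. In the conservative list, the median rank for all 2662 bound genes was 1600.5 (36.4%) and the median signal value 138.0. Among the 439 peaks of highest signal value were the peaks of 6 members (27.3% of the bound) and of 465 bound genes (17.5%). Members were present toward both ends, with 4 among the first 20 ranks and 11 in the lower part of the list.

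The closest summit lay upstream of the start at 21 of 22 bound members (95.5%, 77.2 to 99.9), beside 84.5% of all bound genes, with mRpL23 the exception. A summit between divergent starts is upstream of both genes, and all 22 bound members are divergent. Of the 2662 bound genes, 1176 have no divergent neighbour, and the share over bound divergent genes alone was not counted. Positions of the strongest summit ran from 514 bp upstream to 68 bp downstream with a median of -144 bp, and its distance to the neighbour's start ran from 32 bp at mRpL35 to 628 bp at mRpL4 with a median of 178 bp. The summit lay between the divergent starts at 20 of 22 members, the others being mRpL23 and mRpL18, and the same 20 summits were intergenic. Neither count was made over the other bound divergent genes, so it is not shown to be particular to the members. At mRpL18, whose start is 20 bp from that of Taz, the summit was 195 bp away in the Taz 5' UTR. The member was the gene with the nearest start to one of its summits in 13 of 22 cases (59.1%, 36.4 to 79.3). Over all bound genes, divergent or not, the share was 71.9%. Without replicate 2 the member was nearest for 8 of the 18 members bound in the list of replicate 1. For the strongest summit alone, 12 lay nearest to the member and 10 nearest to the neighbour: those at mRpS2, mRpS23, mRpS24, mRpS25, mRpS26, mRpL18, mRpL20, mRpL24, mRpL34 and mRpL35.

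**Figure D3:**
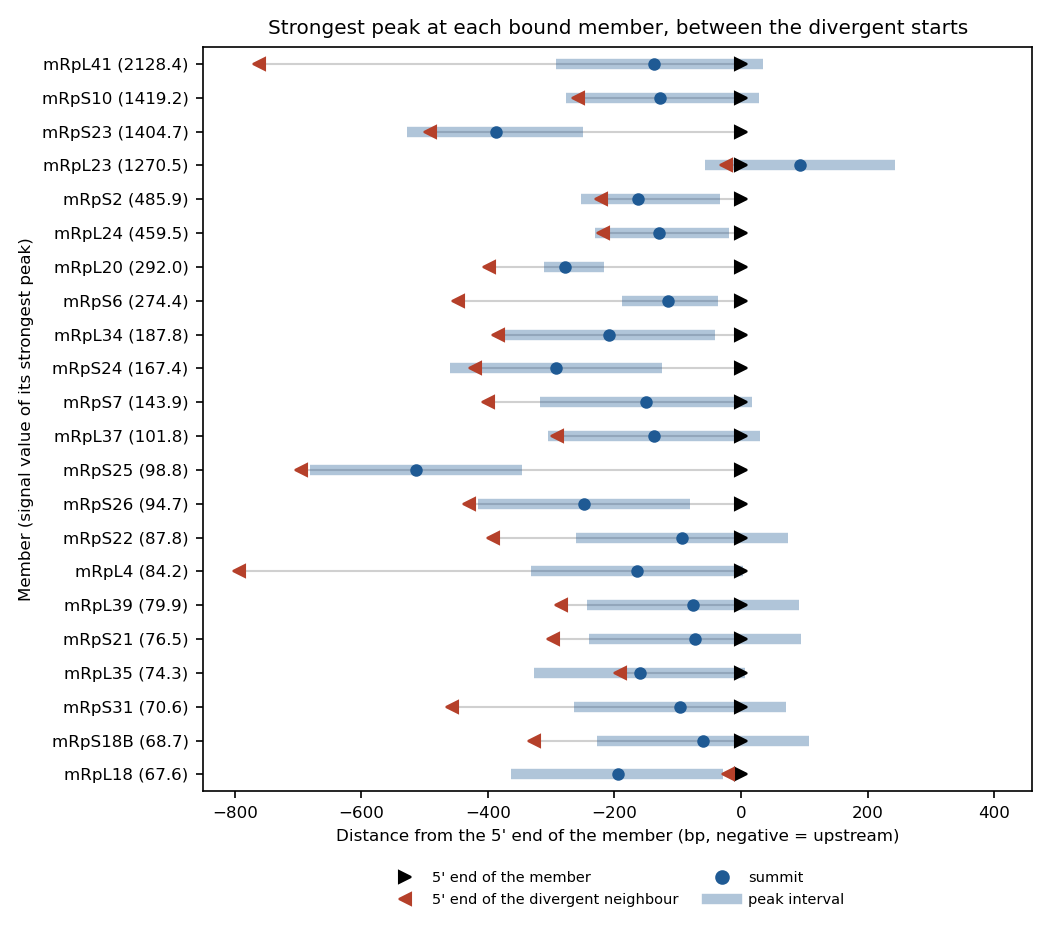
Strongest peak of each bound member, strongest at the top: distance in bp from the 5' end of the member (black) to the summit (blue point), the peak interval (blue bar) and the 5' end of the divergent neighbour (red). In 20 of 22 rows the summit lies between both 5' ends, and mRpL23, drawn from its outermost 5' end, and mRpL18 are the exceptions.

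The distance between divergent starts differed between bound and unbound members. It had a median of 388 bp in the 22 bound pairs (range 20 to 793) and 189 bp in the 34 unbound divergent pairs (range 28 to 637). Over all divergent genes the median was 302 bp in both bound and unbound pairs. Of the 20 members with starts at most 200 bp apart, 3 were bound (15.0%, with 23.6% of all such genes), namely mRpL18, mRpL23 and mRpL35. At 201 to 400 bp, 11 of 19 were bound (57.9%, with 42.5% of all), and at 401 to 1000 bp 8 of 17 were bound (47.1%, with 28.0% of all). For members and for all genes alike, the share was lowest in the shortest class and highest in the middle one.

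**Figure D4:**
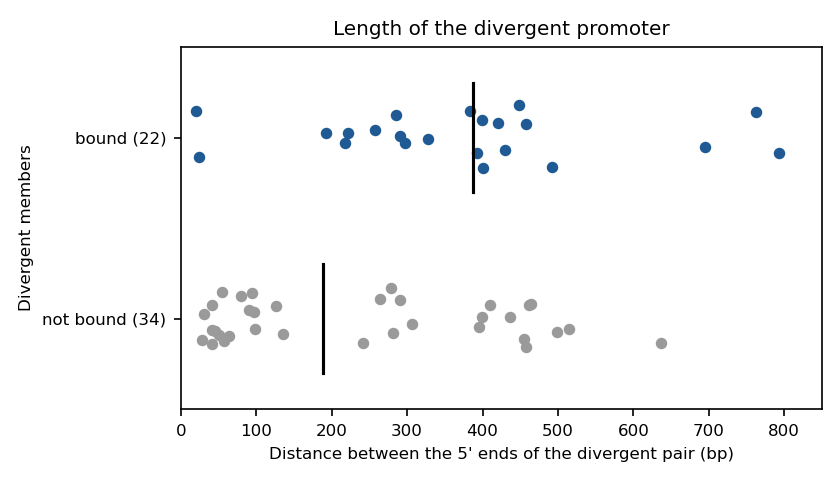
Distance in bp between the 5' ends of each divergent pair for the 22 bound (blue) and 34 unbound (grey) members, with the median as a vertical line and points spread vertically only to separate them. The bound median is 388 bp and the unbound median 189 bp, and the ranges overlap almost throughout.

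Most of the stronger member peaks were found in each replicate alone. The strongest peak of 14 of 22 bound members overlapped, by at least 1 bp, a thresholded peak of replicate 1 and one of replicate 2 (63.6%, 40.7 to 82.8), beside 67.5% of all bound genes. Above the middle rank of the list this held for 11 of 11 members and below it for 3 of 11, namely mRpL37, mRpS26 and mRpL39. The 67.5% counts a gene when any of its peaks passed, a rule that also gives 14 of 22 members. The split by rank is not given for all bound genes, so it is not shown to be particular to the members. Replicate 1 alone passed at mRpS25, mRpS22 and mRpL4. Replicate 2 alone passed at mRpS21 and mRpS31. Neither replicate's own list held mRpL35, mRpS18B or mRpL18, the 3 having signal values of 74.3, 68.7 and 67.6.

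Before the threshold every bound member had a peak in both replicates' ranked lists. Replicate 1 gave signal values from 32.8 at mRpS31 to 1186.1 at mRpL41, and replicate 2 from 25.7 at mRpL18 to 943.3 at mRpL41. The ratio of replicate 1 to replicate 2 had a median of 1.07 (range 0.792 to 1.68), and replicate 1 was higher at 14 of 22 members. Over all conservative peaks with a value in both lists the median ratio was 1.09. Across the 22 peaks Spearman's rho between the replicates was 0.884, and 0.833 across 4355 peaks of the list. These correlations are across peaks of the same pair of libraries and are a description.

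**Figure D5:**
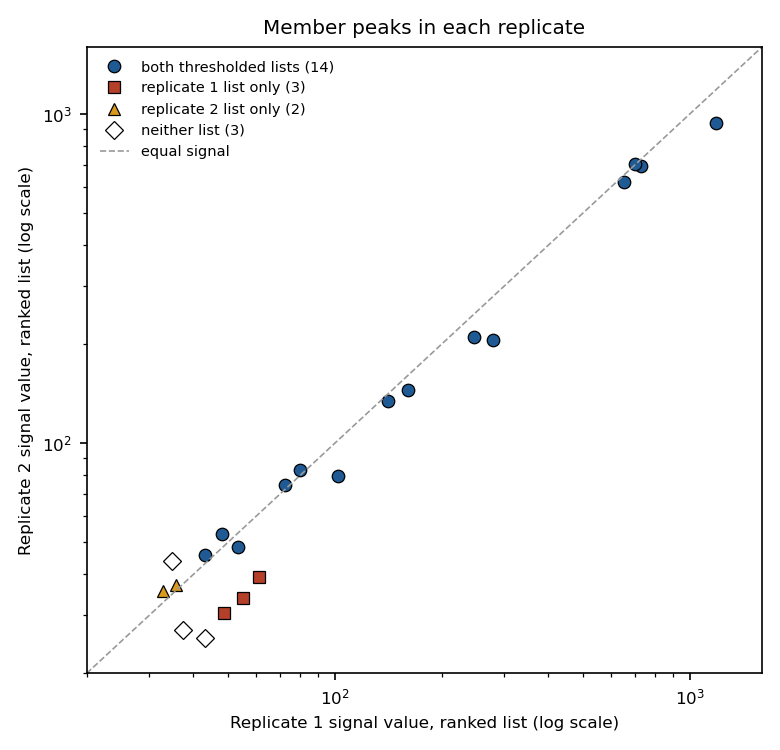
Signal value in replicate 2 against replicate 1 (both log scales, unit not stated, each from that replicate's ranked list) for the strongest peak of the 22 bound members, with the line of equal signal dashed and symbols for the thresholded lists that hold the peak. The 14 peaks held by both lists include all of the stronger ones, and the 3 held by neither lie near the lower left corner.

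The other thresholded lists gave fewer bound members. The other thresholded list of the series had a summit at 20 of 73 (27.4%, 17.6 to 39.1), without mRpL18 and mRpS18B, beside 16.5% of all genes. Replicate 1 alone gave 18 of 73 (24.7%, with 14.8% of all genes), and replicate 2 alone 16 of 73 (21.9%, with 15.8%). Replicate 1 added mRpL21, a large-subunit gene paired with rept, which was not bound in the conservative list. In the ranked list before any threshold, 49 of 73 members had a summit (67.1%, 55.1 to 77.7), which equals the 67.1% of all genes.

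Of the 51 unbound members, 34 were divergent and 17 were not. In the ranked list 27 of them had a peak, 23 divergent and 4 not, and 24 had none. The signal values of those peaks ran from 11.3 to 65.7 with a median of 33.2, below the 67.6 of the weakest bound member. The highest were mRpL47 at 65.7, mRpL21 at 64.8 and mRpL32 at 61.8, with −log10 values of the global IDR of 2.38, 1.53 and 1.07, where the list's limit is 2. The peak at mRpL47 passed that limit and was still left out of the authors' list.

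The 1000 bp distance decided few members. The summits of the conservative list nearest to that distance from the inside were at mRpS25 (514 bp, signal value 98.8), mRpS23 (387 bp, 1404.7) and mRpL4 (369 bp, 22.8, its weaker peak). The nearest outside were at mRpL27 (1211 bp, 77.0), mRpL13 (1438 bp, 212.8) and mRpL22 (1684 bp, 87.7). No member had a closest summit between 514 and 1211 bp. Over the 51 unbound members the nearest summit was at a median of 9980 bp, and the farthest was that of mRpS5 at 1658338 bp.

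Sequence motifs were searched on both strands from 250 bases before to 50 bases after the start. The DNA replication-related element (DRE), TATCGATA, which is bound by the core promoter factor DREF in the fly, was present in 6 of 22 bound members (27.3%) and 9 of 51 unbound members (17.6%), beside 9.36% of all promoters and 268 of 1486 bound divergent ones. Without replicate 1 the element was in 3 of the 16 members bound in the list of replicate 2. The sites that lie outside exons are shown for the bound members because they place the element relative to the summits given above, with TATCGATA in capitals and the strand of the member read from the RefSeq dm6 sequence.
mRpL20 (chr3L:13017868-13017893, minus strand): ccttgcatcgatatttTATCGATAac
mRpL39 (chr3L:14999675-14999714, minus strand): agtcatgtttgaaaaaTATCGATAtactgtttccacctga
mRpS23 (chr2L:13835258-13835297, minus strand): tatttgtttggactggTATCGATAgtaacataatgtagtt
mRpS23 (chr2L:13835073-13835097, minus strand): gcggcaactctgatggTATCGATAg
mRpS25 (chrX:14583000-14583039, minus strand): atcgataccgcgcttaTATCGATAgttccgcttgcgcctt
The first base of these sites was 10 bp before the start at mRpL20, 32 bp at mRpL39, 209 bp and 9 bp at mRpS23 and 41 bp at mRpS25. They were 272, 47, 181, 381 and 476 bp from the strongest summits in the same order. The site at mRpL4 lies in an exon and that at mRpS18B spans the start, so that it lies partly in an exon. They are 187 bp and 59 bp from the summits. Only the sites at mRpL39 and mRpS18B were within 100 bp of the summit, 2 of 22 (9.09%), beside 2.09% of all peaks. The member summits were chosen near starts and the full set of peaks was not. A share over peaks near starts was not counted.

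The shorter form ATCGAT, contained in the DRE, was in 36.4% of bound and 37.3% of unbound member promoters and in 23.3% of all. Over all divergent genes it was in 34.7% of bound and 34.9% of unbound ones, near the shares of the members. CAGGTG was found in 3 of 22 bound members (13.6%), mRpL39, mRpS21 and mRpL35, in 3 of 51 unbound members (5.88%) and in 9.31% of all promoters. Within 100 bp of the strongest summit it was present at 1 of 22 members (4.55%), beside 5.28% of all peaks, near starts or not. GGTCACAC, part of the motif of the promoter factor M1BP, was in 1 of 22 bound and 7 of 51 unbound members and in 7.69% of all promoters. CACGTG, an E-box of another family of factors, was in 1 of 22 and 4 of 51 members and in 4.2% of all promoters, and within 100 bp of a summit it was present at mRpL23. Over all bound divergent genes CAGGTG was in 7.47%, GGTCACAC in 13.1% and CACGTG in 5.92% of promoters. Over all unbound divergent genes the shares were 9.04%, 14.2% and 4.27% in the same order. These are matches to letters only, and an absent match says nothing about binding of the factor.

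Other genes of mitochondrial gene expression were bound at a share near the background. Of 34 such genes matched in the annotation, 6 were bound (17.6%), beside 19.1% of all genes. With a divergent neighbour 4 of 17 were bound, and without one 2 of 17. None of 8 translation factors was bound, and 6 of these 8 have no divergent neighbour. Of 15 mitochondrial aminoacyl-tRNA synthetase genes 2 were bound, LeuRS-m and ProRS-m. The LeuRS-m summit, at position -864 bp, is nearest to Dhc64C (signal value 512.2). That of ProRS-m, at -150 bp, is nearest to CG42304 and Snup (141.9). Of 11 genes for mitochondrial transcription and RNA 4 were bound: PNPase (1620.5, rank 7), SLIRP2 (923.3, rank 37), SLIRP1 (240.2) and mTerf5 (117.4). The SLIRP1 summit is equally near to anox. PNPase encodes polynucleotide phosphorylase, an enzyme that degrades RNA, and the mTerf family binds mitochondrial DNA or RNA. Of the genes of the cytoplasmic ribosome, taken by symbol, 40 of 93 were bound (43.0%), 28 of 55 with a divergent neighbour and 12 of 38 without one, where the mitochondrial ribosomal genes had 22 of 56 and 0 of 17.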

How the data were processed

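Peak lists of 2 biological replicates of 1 group and of the whole series were used. Coordinates are dm6, and the lists derive, per the descriptions deposited beside them, from replicate alignments and a control alignment. The aligner and the peak caller were not given in the sources used here. Depth per sample and the signal unit are unknown. The signal value of each peak is as deposited by the authors. The ranked lists hold the −log10 of the global IDR as deposited by the authors. Every conservative peak on the arms was found in the ranked list at −log10 of at least 2. Each ranked list has 8 further columns of per-sample values, which were not used.

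From these lists, summits were set against transcript starts of Ensembl release 115 (BDGP 6.54) on 7 arms. Sequence came from RefSeq's copy of that assembly. Starts of divergent neighbours were gene 5' ends within 1000 bp. Replicate presence needed an overlap of at least 1 bp. Named were all bound members, with full values for the 10 strongest, the 3 nearest inside and outside 1000 bp, members bound only in another list, and neighbours of bound members, of which 1 is not reported here. Other genes named by their values, such as those of the ranked list, were chosen after the values were seen. The members and lists were chosen with earlier results of these data known. Classes of origin follow human nomenclature and were added later. Alternatives were the other lists, an upper part of the list by signal value, other distances, gene 5' ends only, a stricter overlap, and 2 added after seeing the data: 250 bp, and peaks that cover the start. The work used scipy 1.17.1, pandas 2.3.3, numpy 2.4.6, matplotlib 3.10.9 and Python 3.11.15, and the counting was tested on simulated data.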

Additional observations from a re-analysis of the deposited data

How the results depend on the processing

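In the upper part of the conservative list by signal value, 11 members were bound in place of 22, 5 were nearest to a summit in place of 13, and 10 had the closest summit upstream in place of 21. There the divergent bound members were 11, those with TATCGATA 2 in place of 6, and the median rank 10.3% in place of 44.1%. This setting keeps fewer peaks by construction. With either replicate left out, members nearest to a summit were 8 to 9, the median rank 26.4% to 38.2%, and bound members with TATCGATA 3 to 5. The median rank was 34.4% at 500 bp, where the loss of mRpS25 leaves mRpS7 (34.4%) as the middle member. In the main setting the median falls between mRpS7 and mRpL37 (53.9%). At 2000 bp, with 28 bound members, it was 52.6%. TATCGATA within 100 bp of the summit was present at 2 members. Peaks that cover the start, a setting chosen after seeing the data, were found at 13 members. For that setting and for the upper part of the list, the share over all protein-coding genes is not given. Neither count can be read against a background. The other 38 values tried were within 1.5 times the main count or near the main rank.

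At 500 bp 21 members were bound (lost mRpS25; 16.1% of all genes), and at 250 bp, added after seeing the data, 18 (lost mRpL20, mRpS23, mRpS24 and mRpS25; 12.3%). At 2000 bp 28 were bound (gained mRpL12, mRpL13, mRpL22, mRpL27, mRpL33 and mRpL46, with 23.9% of all genes). Of these 28, 26 have a divergent neighbour, and mRpL12 and mRpL13 do not. Read depth is unknown, so a member without a peak is not shown to be free of the fusion protein. Without a second condition, mock immunoprecipitation or expression data, no comparison of members between conditions can be made. No paired analysis was possible because the series has 1 group.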

Other observations

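The strongest peaks of the bound members were 96 to 336 bp wide. The width of 336 bp was that of 14 of the 22, and also of 3489 peaks of the conservative list. At the midpoint between divergent starts, the median GC content of 101 bp was 30.7% in the 22 bound pairs (13.9% to 44.6%) and 32.7% in the 34 unbound pairs (14.9% to 58.4%). Over the 300 bp promoters it was 33.0% in bound members (28.0% to 46.7%) and 36.0% in unbound members (25.7% to 57.7%), and the ranges overlap in both cases.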
